A study of Mus musculus with 3 samples.

Results

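The classical cadherins, the solitary protocadherins and the catenins are the adhesion machinery by which cells of a tissue recognise and hold each other. The set examined here held 50 genes of the 41388 listed in the data. It took every protein-coding gene whose symbol is Cdh or Pcdh followed directly by a digit, the 7 catenin genes (Ctnna1, Ctnna2, Ctnna3, Ctnnb1, Ctnnd1, Ctnnd2 and Jup), the 3 Celsr genes, the 4 Fat genes and Dchs1. The clustered Pcdha, Pcdhb and Pcdhg genes were not included, and the rule itself uses no measured value.

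RNA had been sequenced from fluorescent cells of mouse embryos at day 14.5 of development, sorted from dorsal root ganglia, where the cell bodies of spinal sensory neurons lie. The embryos were C57BL/6 animals with a Ret-EGFP allele, in which EGFP reports expression of the receptor gene Ret. The series text describes this allele as a heterozygous knock-in at Ret, whereas the genotype label reads Tg(Ret-EGFP)SJ, so the 2 descriptions differ. Ganglia of levels T11 to S1 were dissociated and sorted, which left 3 libraries of 1 group, and no control population was analysed here. Library A pooled 100 ganglia from 5 embryos, library B 100 ganglia from 6 embryos and library D 80 ganglia from 4 embryos, with both sexes in each pool. Every library therefore averaged over embryos, and a p-value covers only the spread between such pools. The cells that carry Ret-EGFP at this age include more than 1 kind of sensory neuron, which bulk RNA cannot separate, and fewer cells of a type cannot be told apart from less RNA per cell.

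Total counts were between 20181558 and 29061086 per library. Levels are given as TPM, the counts per base of exon scaled to the same sum in each library, with the mean ± SD over the 3 libraries (n = 3). All 8 sensory neuron markers were above 1 TPM, and their summed level was 24318 to 29515 TPM. Schwann precursor and satellite glia markers summed to 250 to 469 TPM (5 of 7 at 1 TPM or more). Mesenchyme and pericyte markers summed to 60.1 TPM in library B against 15.5 and 9.57 TPM in A and D, and Twist2 was at 0 in all 3. The TPM of the median tested gene was lower in library D than in the other 2 by 0.34 on the log2 scale, so a TPM in D is read against that shift. Library differences below use log2 CPM after TMM normalisation, in which the median of all tested genes was within 0.03 of zero in each library.

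Classical cadherins are calcium-dependent membrane proteins that bind their own kind on the neighbouring cell. Inside the cell, beta-catenin or plakoglobin binds the cadherin tail and recruits alpha-catenin, which connects the complex to actin, while the delta-catenins bind nearer the membrane and stabilise the cadherin at the surface. Protocadherins have a similar outer part but do not use the catenins in this way; the delta protocadherins signal to the actin cytoskeleton. In the nervous system these families take part in cell sorting, axon guidance and synapse formation, and Celsr, Fat and Dachsous proteins, very large cadherins, take part in planar polarity and the orientation of neurites.

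Because these genes arose by duplication, close relatives could exchange reads. The most alike 60-base stretches of coding sequence are therefore shown for 3 pairs of relatives, 5′ to 3′ on the coding strand, with capitals on the bases that differ from the partner. Of these pairs, only Ctnnb1 and Jup had their ratio tested below. Ctnnb1 (exon 5, chr9:120951423-120951482, plus strand) and Jup (exon 4, chr11:100383030-100383089, minus strand) differed at 6 of 60 bases. Ctnna2 (exon 16, chr6:76932353-76932412, minus strand) and Ctnna3 (exon 15, chr10:64873276-64873335, plus strand) differed at 5. Cdh12 (exon 5, chr15:21480267-21480326, plus strand) and Cdh10 (exon 4, chr15:18965998-18966057, plus strand) differed at 7. Sequences and exon numbers are from GENCODE M21 transcripts, build GRCm38.
Ctnnb1: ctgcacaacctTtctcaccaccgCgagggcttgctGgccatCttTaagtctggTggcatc
Jup: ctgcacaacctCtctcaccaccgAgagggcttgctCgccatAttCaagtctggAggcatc
Ctnna2: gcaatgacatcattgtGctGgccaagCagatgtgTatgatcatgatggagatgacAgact
Ctnna3: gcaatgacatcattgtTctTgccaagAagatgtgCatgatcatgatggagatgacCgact
Cdh12: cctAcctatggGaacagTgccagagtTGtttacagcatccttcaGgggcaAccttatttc
Cdh10: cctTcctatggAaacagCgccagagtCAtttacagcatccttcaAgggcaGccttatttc

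Even in these stretches the differing bases were spread along the sequence. Over whole transcripts, 33 of the 50 members shared no 31-base word with another member. The largest share of a member's 31-base words found in another member was 0.353%. In the deposited exons, 10 of the 50 members shared bases with another listed gene, and the strand setting of the counting is not given in the sources used here. The share was 61.2% for Ctnnd1, with Gm28635, a gene on the same strand that was listed at 0 counts in every library. It was 10.4% for Cdh24, 7.04% for Fat4, 5.85% for Dchs1, 4.71% for Ctnnb1 and at most 3.12% for the other 5. In GENCODE M21 transcripts, 20.7% of the 31-base words of Pcdh7 were also in 4932441J04Rik and 13.2% of those of Ctnnb1 in Ulk4.

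Of the 50 members, 33 (66%) had a mean of at least 1 TPM, beside 55.3% of the 21474 protein-coding genes. The median was 2.87 TPM over the members and 2.05 TPM over the protein-coding genes. At 10 TPM or more stood 12 members: 5 catenins, 3 type I cadherins, 3 type II cadherins and 1 protocadherin. Nearest the 1 TPM threshold, Pcdh1 lay above it at 1.56 TPM and Fat4 below it at 0.667 TPM. On the deposited lengths the 3 highest members were Ctnna2, Pcdh9 and Jup, and the level of Ctnna2 was above that of 93.8% of protein-coding genes. The catenins together summed to 347 ± 92.0 TPM, the delta-1 protocadherins to 97.3 ± 41.3 TPM, the type I cadherins to 81.0 ± 27.8 TPM and the type II cadherins to 77.0 ± 23.9 TPM. These sums are on the deposited lengths, and Pcdh9, at 80.8 ± 39.5 TPM, was the largest part of the delta-1 sum. With its GENCODE M21 length, given below, Pcdh9 had 44.2 TPM. The order of the delta-1 protocadherins and the cadherins thus depends on the lengths used. All 50 members summed to 796, 681 and 451 TPM in libraries A, B and D, or 0.173%, 0.158% and 0.119% of the counts.

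**Figure D1:**
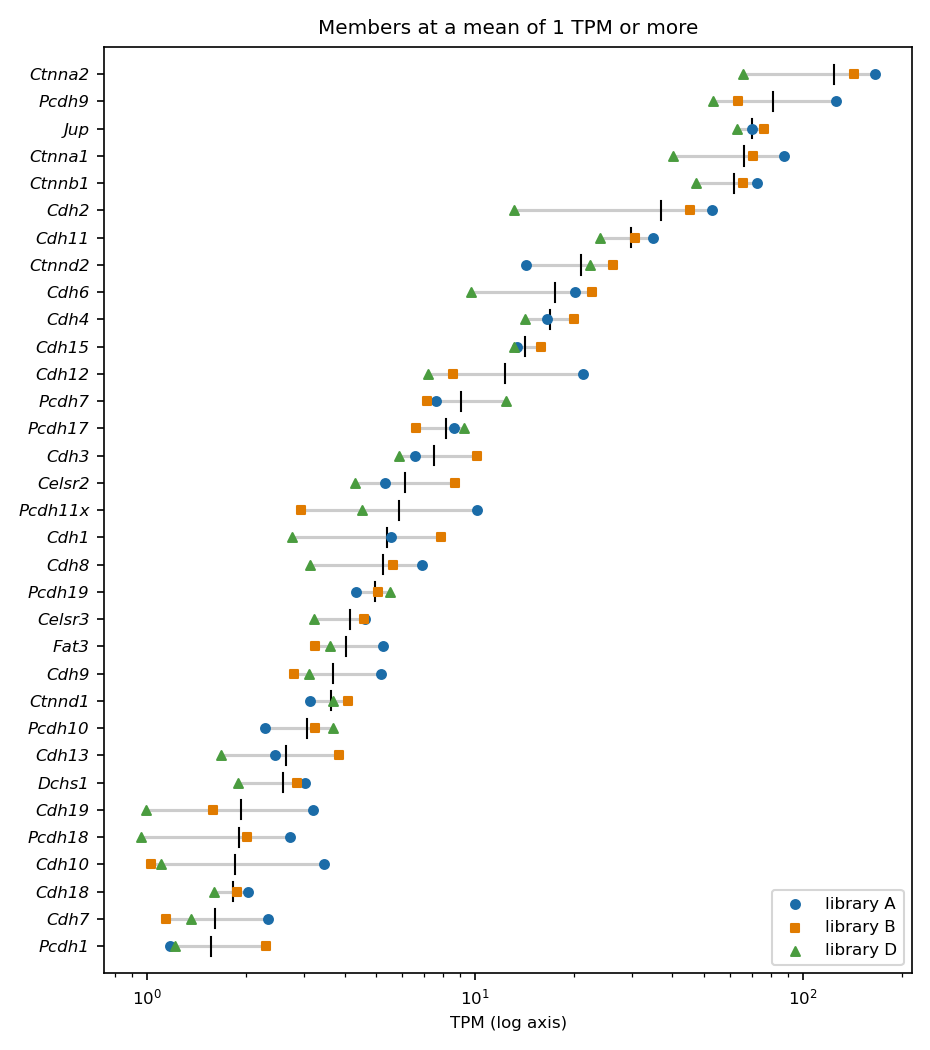
TPM of the 33 members with a mean of at least 1 TPM, on a log axis, sorted by mean; symbols give libraries A, B and D, the grey line their range and the black tick the mean. Ctnna2, at 65.4 to 166 TPM, is the highest by its mean, and among members at 10 TPM or more the ratio of the highest to the lowest library is largest for Cdh2 (4.02) and Cdh12 (2.97).

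Lengths in the deposited files set these levels, and some are shorter than in a newer annotation. In GENCODE M21 the exons of 7 members covered over 1.5 times the deposited length. Cdh6 had 2632 deposited bases and 9024 in M21, and Cdh11 had 4216 and 8904. With the M21 length the Cdh6 level was 5.12 ± 2.01 TPM in place of 17.5 ± 6.90 TPM, and that of Cdh11 14.1 ± 2.59 TPM in place of 29.9 ± 5.47 TPM. Only the lengths of members were replaced, and the resulting levels were not rescaled to a common sum. Reads beyond the deposited exons were not counted, so the M21 length divides those counts by more bases than were searched. The other 5, with means on the M21 length, were Pcdh9 (44.2 TPM), Ctnnd2 (12.1 TPM), Ctnna1 (38.0 TPM), Pcdh7 (5.30 TPM) and Pcdh11x (3.79 TPM). On the M21 lengths the 3 highest members were Ctnna2 (125 TPM), Jup (69.7 TPM) and Ctnnb1 (60.6 TPM). The count of members at 1 TPM or more was 33 with either length.

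Cdh2 encodes N-cadherin, the neural type I cadherin (chr18:16588877-16809246, minus strand). It was measured at 52.7 TPM (A), 45.1 TPM (B) and 13.1 TPM (D). Libraries A and B lay close together and D lay below both. Cdh1, which encodes E-cadherin of epithelia (chr8:106603351-106670246, plus strand), stood at 5.54, 7.85 and 2.77 TPM. Cdh2 exceeded Cdh1 in each library, by a log2 ratio of 2.67 ± 0.52 (6.37-fold). With 3 libraries the two-sided exact sign-flip permutation test cannot give a p below 0.25, the value found here (0.3125 after Benjamini-Hochberg adjustment over the 15 pairs tested).

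Epithelial markers other than Cdh1 were low. Their list summed to 1.59 to 2.85 TPM (1 of 4 at 1 TPM or more), with Epcam at 1, 1 and 15 counts. Their part in the Cdh1 level was not tested.

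Cdh4, which encodes R-cadherin (chr2:179442431-179899373, plus strand), had 16.6 TPM for library A, 20.1 for B and 14.2 for D. Its log2 ratio to Cdh2 changed sign: Cdh2/Cdh4 was 1.66 and 1.17 in A and B, but -0.11 in D. The mean of 0.91 ± 0.92 was smaller than its SD (exact sign-flip permutation p = 0.5). Cdh2 made up 55.6%, 45.5% and 26.7% of the summed type I TPM in libraries A, B and D. In D the shares of Cdh4 (28.9%) and Cdh15 (26.8%) were on a par with it. Cdh3, which encodes P-cadherin, held 9.69 ± 2.57% of the type I sum at a level of 7.51 ± 2.30 TPM.

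Cdh15 encodes M-cadherin, best known from skeletal muscle and its satellite cells (chr8:122848374-122867397, plus strand). It was at 13.5, 15.9 and 13.1 TPM in libraries A, B and D (290, 360 and 483 counts), 14.2 ± 1.52 TPM on average. Its coefficient of variation of TPM, 10.7%, was the second lowest among members at 1 TPM or more. That holds on the TPM scale, which was shifted down in D. In log2 CPM, Cdh15 differed from the other libraries by -0.28 in A, 0.10 in B and 0.18 in D. Cdh18 was more even on that scale, at 0.05, -0.10 and 0.04. The muscle markers were near zero: Myog had 0 counts in every library, Myod1 had 0, 0 and 1, and the 5 markers summed to 0.0450 to 0.365 TPM with none at 1 TPM.

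Of the 13 type II cadherins, 9 reached 1 TPM. Cdh11, which encodes OB-cadherin of mesenchyme and brain (chr8:102632995-102785111, minus strand), was the highest on the deposited lengths at 34.9 TPM (A), 30.7 TPM (B) and 24.0 TPM (D). It held 39.9 ± 5.40% of the type II sum. Among the mesenchyme markers, Col1a1 was at 3.68, 28.4 and 2.32 TPM and Pdgfra at 0.392, 0.317 and 0.229 TPM. Col1a1, Col1a2, Col3a1 and Pdgfrb were all highest in B. Pdgfra was highest in A by TPM, as Cdh11 was, but from only 20, 17 and 20 counts. The part of mesenchymal cells in the Cdh11 level was not tested.

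The log2 ratio of Cdh2 to Cdh11 was 0.09 ± 0.84, positive in A (0.60) and B (0.56) and negative in D (-0.87). The exact sign-flip permutation p was 1, and neither gene could be placed above the other. Leaving out a library decided the sign: the mean was -0.16 when A was omitted, -0.14 when B was omitted and 0.58 when D was omitted. With the M21 lengths it was 1.17.

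Cdh6, a type II cadherin of neural crest derivatives and kidney (chr15:13034200-13173639, minus strand), was at 20.1 TPM for library A, 22.8 for B and 9.72 for D. Cdh12 (chr15:21111452-21589533, plus strand), a type II cadherin of the brain, was at 21.4 TPM in A against 8.55 TPM in B and 7.19 TPM in D. Cdh10 (chr15:18818947-19014236, plus strand), also a type II cadherin, was at 3.45 TPM in A against 1.02 and 1.10 TPM. Both were thus highest in A, with B and D close together. Cdh6 exceeded Cdh10 in every library, with a log2 ratio of 3.39 ± 0.99 on the deposited lengths and 1.61 on the M21 lengths (exact sign-flip permutation p = 0.25).

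Cdh8, a type II cadherin of neuronal circuits, was at 5.23 ± 1.91 TPM, and lay 5.95-fold below Cdh11 (log2 ratio -2.57 ± 0.32, the same sign in every library). With the M21 lengths that log2 ratio was -1.49. Cdh9 (3.70 ± 1.28 TPM), Cdh18 (1.83 ± 0.219 TPM) and Cdh7 (1.61 ± 0.638 TPM) followed. Cdh18 was even across libraries, at 1.60 to 2.03 TPM.

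Cdh19, a type II cadherin of neural crest and Schwann cell precursors (chr1:110888326-110977584, minus strand), had 3.20, 1.58 and 0.993 TPM in libraries A, B and D. Its order was not that of the glial marker list, which summed to 250 TPM (A), 403 TPM (B) and 469 TPM (D). Sox10 was at 4.67, 11.1 and 6.86 TPM. Cdh19 was highest where that list was lowest.

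Cdh5, which encodes VE-cadherin of endothelium (chr8:104101625-104144502, plus strand), was low at 0.463, 0.819 and 0.388 TPM, from 14, 26 and 20 counts. Pecam1, another endothelial gene, was at 2.40 ± 0.769 TPM, and the endothelial list summed to 3.39 to 4.40 TPM. Cdh24, Cdh20 and Cdh22 were the other type II genes below 1 TPM, with means of 0.0635 to 0.267 TPM.

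Among the 5 cadherin genes outside the classical types, Cdh13 alone reached 1 TPM. It encodes T-cadherin, which lacks a cytoplasmic tail and is held by a lipid anchor, and was measured at 2.45, 3.84 and 1.68 TPM. Cdh16 of kidney (0.176 TPM on average), Cdh26 (0.0730 TPM), Cdh23 of the hair-cell tip link (0.0428 TPM) and Cdh17 of intestine (0.0254 TPM) had at most 9 counts in any library. Cdh26 had counts in library A only, 5 in number.

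The catenins that bind these cadherins were abundant. Ctnna2, which encodes the neural alpha-N-catenin (chr6:76881637-77979699, minus strand), was at 166 TPM for library A, 143 for B and 65.4 for D. Ctnna1, the widely expressed alpha-E-catenin gene (chr18:35118888-35254773, plus strand), was at 87.6, 70.4 and 40.1 TPM. For both, A was highest and D lowest, and their ranges overlapped between the genes. Within each library Ctnna2 was the higher, and the log2 ratio Ctnna1/Ctnna2 was -0.88 ± 0.16 (exact sign-flip permutation p = 0.25). With the M21 lengths that ratio was -1.68. Ctnna3, the alpha-T-catenin gene of heart (chr10:63430098-65003667, plus strand), was at 0.329 ± 0.0633 TPM. Ctnna2 made up 64.7 ± 2.60% of the alpha-catenin TPM, Ctnna1 35.1 ± 2.52% and Ctnna3 0.190 ± 0.0726%.

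Jup encodes plakoglobin, a relative of beta-catenin that also serves desmosomes (chr11:100368958-100397763, minus strand). Its level was 70.0, 76.1 and 63.0 TPM in libraries A, B and D, with the lowest coefficient of variation of TPM among members at 1 TPM or more (9.40%). In log2 CPM, which lacks the shift of TPM in D, Jup differed from the other libraries by -0.16, 0.04 and 0.12. Ctnnb1, the beta-catenin gene and effector of Wnt signalling (chr9:120929216-120960507, plus strand), was at 72.2, 65.6 and 47.3 TPM. Neither was the higher in all 3 libraries: the log2 ratio Ctnnb1/Jup was 0.05 for A, -0.21 for B and -0.42 for D, with a mean of -0.19 ± 0.23 (exact sign-flip permutation p = 0.5). Plakoglobin made up 53.4 ± 3.98% of their summed TPM.

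Desmosome genes were low beside Jup. None of the 10 desmosome genes listed reached a mean of 1 TPM, and their median was 0.0921 TPM. Dsp, which encodes the linker desmoplakin, had 1, 0 and 2 counts, and Dsc1 had 0 in every library. Pkp2 was the highest at 0.987 ± 0.563 TPM, with 1.45 TPM in A and 1.15 TPM in B.

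Of the delta-catenins, Ctnnd2, the neural gene for delta-catenin (chr15:30172593-31029311, plus strand), was at 14.3 TPM (A), 26.3 TPM (B) and 22.5 TPM (D). Ctnnd1, the gene of the widely expressed p120 protein (chr2:84600071-84650765, minus strand), was at 3.14, 4.08 and 3.68 TPM. Both were lowest in A. Ctnnd2 lay above Ctnnd1 in each library, 5.64-fold on average (log2 ratio Ctnnd1/Ctnnd2 -2.50 ± 0.27). Ctnnd1 is the member with the largest share of its exon bases in another gene. Over its unshared length its level was 9.38 ± 1.23 TPM and the log2 ratio was -1.13. With the M21 lengths the ratio was -1.69, still of the same sign.

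**Figure D2:**
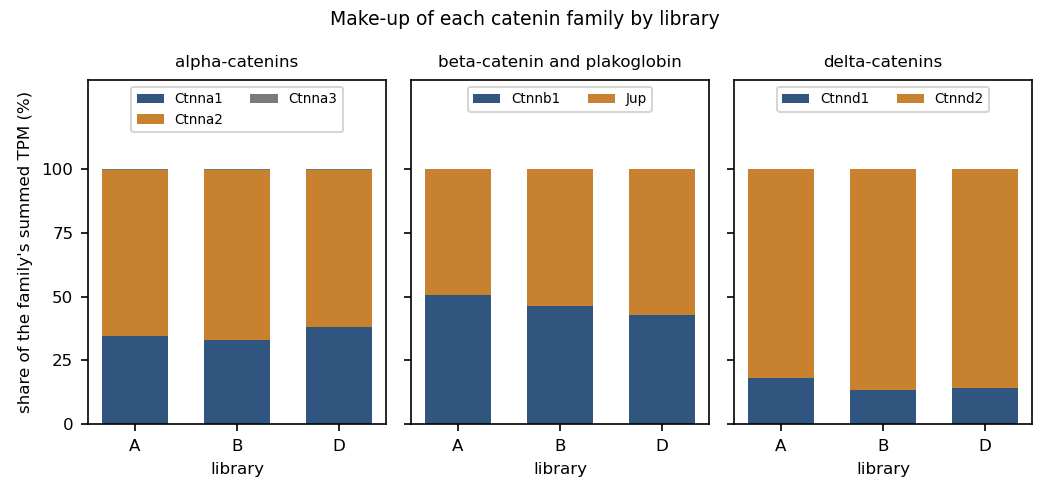
Share of the summed TPM, in percent, that each gene contributed to its catenin family in libraries A, B and D (stacked bars, 1 bar per library). Ctnna2 holds 61.8 to 66.9% of the alpha-catenin level, Jup 49.2 to 57.1% of the beta-catenin and plakoglobin level, and Ctnnd2 82.0 to 86.6% of the delta-catenin level.

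Summed alpha-catenin TPM was 1.79 times the sum of beta-catenin and plakoglobin in A, 1.51 times in B and 0.960 times in D, so the order turned in D (log2 ratio 0.46 ± 0.46). The 18 classical cadherins together summed to 158 ± 49.5 TPM, and their log2 ratio to beta-catenin plus plakoglobin was 0.22 ± 0.30. The log2 ratio of the summed type I to type II levels was 0.05 ± 0.26 on the deposited lengths and turned sign between libraries. With the M21 lengths the type II genes Cdh6 and Cdh11 were at 5.12 and 14.1 TPM in place of 17.5 and 29.9 TPM. The type I gene Cdh2 kept 37.0 TPM. Near-equal type I and type II sums thus hold for the deposited lengths only, and no ratio of sums was taken with the M21 lengths. Delta-catenins lay below alpha-catenins in each library, with a log2 ratio of -2.90 ± 0.93.

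**Figure D3:**
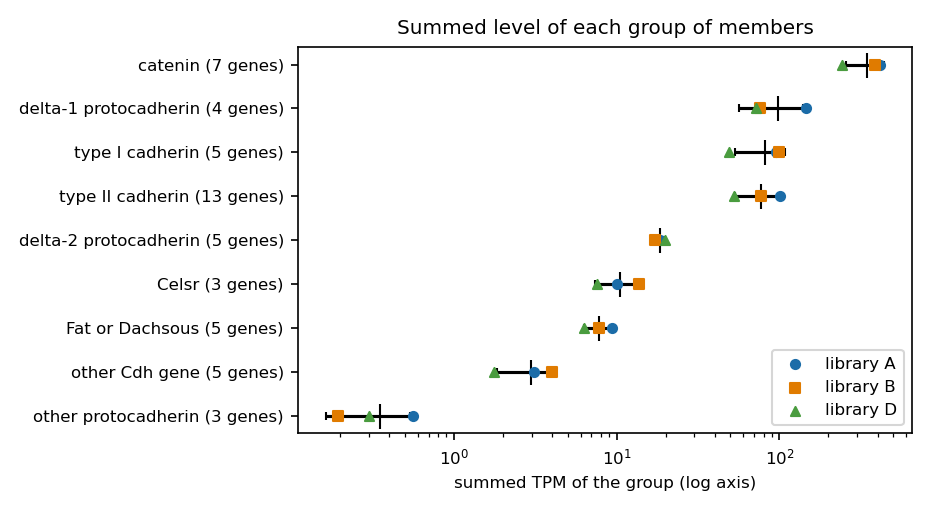
Summed TPM of each group of members on the deposited lengths, on a log axis; symbols give libraries A, B and D, and the bar the mean ± SD (n = 3). The catenins stand highest at 242 to 414 TPM, and the delta-2 protocadherins are the group with the narrowest spread relative to its mean, at 17.3 to 19.9 TPM.

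All 4 delta-1 protocadherins reached 1 TPM, but 1 gene carried most of the level. Pcdh9 (chr14:93015512-93888732, minus strand) was at 126 TPM for library A, 63.3 for B and 53.1 for D. Library A stood above the other 2, which were close together. Pcdh9 made up 81.7 ± 6.47% of the delta-1 sum. With the M21 length its level was 44.2 ± 21.6 TPM in place of 80.8 ± 39.5 TPM.

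Pcdh7 (chr5:57718021-58129351, plus strand), which acts in axon growth of retinal neurons, was at 7.59, 7.12 and 12.5 TPM. It was highest in D, and A and B were close together. Pcdh9 exceeded Pcdh7 by a log2 ratio of 3.10 ± 0.98, and Pcdh7 exceeded Pcdh1 by 2.56 ± 0.87 (1.85 on the M21 lengths), each in every library. The X-linked Pcdh11x (chrX:120290259-120910619, plus strand) was at 10.1, 2.95 and 4.53 TPM in libraries A, B and D. Pools A, B and D held 3 males and 2 females, 2 males and 4 females, and 3 males and 1 female, and a part of this in the Pcdh11x level was not tested.

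Of the 5 delta-2 protocadherins, 4 reached 1 TPM: Pcdh17, Pcdh19, Pcdh10 and Pcdh18. Pcdh17 (chr14:84443563-84537060, plus strand), which acts in axon extension and synapse development, was at 8.65, 6.59 and 9.27 TPM and held 44.0 ± 5.07% of the delta-2 sum. Pcdh19, the X-linked epilepsy gene, was at 4.33, 5.06 and 5.50 TPM. Pcdh10, which encodes OL-protocadherin of axon growth, had 3.08 ± 0.722 TPM, and Pcdh18 had 1.90 ± 0.892 TPM. Pcdh17 exceeded Pcdh10 (log2 ratio 1.42 ± 0.46) and Pcdh19 (log2 ratio Pcdh19/Pcdh17 -0.71 ± 0.31) in every library, each with the smallest p the exact permutation test allows. The summed delta-2 level, 18.5 ± 1.29 TPM, had the smallest SD relative to its mean of the 9 groups of members. That holds on the TPM scale, which was shifted down in D. In log2 CPM, Pcdh8, Pcdh10, Pcdh17 and Pcdh19 were higher in D than in the other libraries by 0.53 to 0.77. Pcdh18 was lower there (log2 difference -0.93). None of them had an unadjusted p under 0.05 in the edgeR test described below.

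Pcdh8 stayed at 0.377 ± 0.0419 TPM. The 3 remaining protocadherins were all below 1 TPM: Pcdh15 of the hair-cell tip link at 0.224 TPM, Pcdh12 of endothelium at 0.0793 TPM and Pcdh20 at 0.0483 TPM.

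Celsr2 and Celsr3, the neural homologues of the Drosophila polarity gene flamingo, were both expressed, and Celsr1 was near zero. Celsr2 (chr3:108390851-108415552, minus strand) was at 5.30, 8.68 and 4.30 TPM, and Celsr3 (chr9:108826320-108852963, plus strand) at 4.62, 4.59 and 3.23 TPM. Celsr2 was the higher in each library, with a log2 ratio Celsr3/Celsr2 of -0.51 ± 0.37. Celsr1 had 6, 31 and 11 counts and a mean of 0.167 TPM, with 31 counts in library B. Its ratio to Celsr2 was not tested, since counts under 10 occurred.

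Among the giant cadherins, Fat3, which shapes dendrites of retinal neurons, was the highest at 5.25, 3.25 and 3.62 TPM. It exceeded Fat1 8.78-fold (log2 ratio 3.13 ± 1.00). Fat1 was at 0.338 TPM (A), 0.798 TPM (B) and 0.337 TPM (D), and Fat2 had 2 counts in A and none elsewhere. In log2 CPM, Fat1 was 1.05 higher in B than in the others, and B also held the highest sum of mesenchyme markers, whose part in this was not tested. Fat4 and Dchs1, a receptor and ligand pair, were at 0.667 ± 0.229 TPM and 2.59 ± 0.612 TPM, with Dchs1 the higher in every library (log2 ratio Fat4/Dchs1 -1.99 ± 0.25). Over all families, 12 of the 15 pairs tested had a log2 ratio of 1 sign in all 3 libraries, each with an exact sign-flip permutation p of 0.25. No such count was taken over other gene pairs, so it is not read as a trait of these members.

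Partners of these proteins were then read from lists of other genes, chosen with earlier results of these data known. Of all protein-coding genes, 55.3% reached 1 TPM, and their median was 2.05 TPM. Of 16 junction partners, 15 reached 1 TPM, with a median of 9.34 TPM beside 2.87 TPM over the 50 members. Adam10 (64.5 ± 6.10 TPM), whose product cleaves N-cadherin, and Ptprf (69.8 ± 13.1 TPM), a receptor phosphatase, were among the highest. Arvcf, a relative of Ctnnd1, was at 0.133 TPM. Of 10 core planar polarity genes, 9 reached 1 TPM, among them Vangl1 (9.99 ± 2.43 TPM), Vangl2 (8.36 ± 1.43 TPM) and Fzd3 (6.76 ± 2.90 TPM), the membrane partners of the Celsr proteins in axon guidance. Fzd6 was at 0.126 TPM.

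Of 8 protocadherin effectors, 7 reached 1 TPM, beside 55.3% of all protein-coding genes, with a median of 42.0 TPM. They included Nckap1 (51.5 ± 13.7 TPM), Cyfip2 (72.7 ± 24.7 TPM) and Wasf1 (69.8 ± 9.87 TPM), subunits of the WAVE complex that delta protocadherins recruit. The 8th, Ppp1ca, was listed at 0, 0 and 1 counts although it encodes a phosphatase subunit used by most cells, so its listing is not read as absence. Of the Fat and Dachsous partners, 3 of 4 found reached 1 TPM. Zeb1, a repressor of Cdh1 in other cells, was at 12.7 ± 3.14 TPM, Zeb2 at 3.18 ± 1.01 TPM, and Snai1 at 0.293 TPM. No gene of these pathway lists passed an adjusted p of 0.05 for variation between libraries in the edgeR test described next, which 0.177% of all tested genes passed.

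Differences between libraries were tested for all genes that passed the low-count filter, with a deviance goodness-of-fit test in edgeR that asks which genes vary by more than others of their level. Of the 50 members, 39 were tested and the other 11 did not pass the filter. None of the 39 passed an adjusted p of 0.05, beside 0.177% of the 13530 genes tested (24 genes). At an unadjusted p under 0.05 stood 4 members (10.3%), beside 6.11% of all genes. Those were Cdh2, Pcdh11x, Cdh10 and Cdh12, with edgeR adjusted p-values between 0.593 and 0.794.

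Cdh2 was lower in library D than in the mean of A and B by 1.56 on the log2 scale (log2 difference -1.56, edgeR adjusted p = 0.593). Without A or without B it was still the 1 member at an unadjusted p under 0.05, and without D it was not among them. Pcdh11x was higher in A by 1.29 and lower in B by 1.35 (log2 difference -1.35). Cdh10 and Cdh12 were higher in A by 1.51 and 1.27. Without D, the members at an unadjusted p under 0.05 were Cdh10, Cdh12, Pcdh11x and Pcdh9, and the smallest adjusted p of a member was 0.169 (edgeR). None of the 4 passed the adjusted threshold under the edgeR alternatives run, and DESeq2 named none of the 50 members as a dispersion outlier.

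Pcdh7 went the other way, with a log2 CPM in D 1.09 above the other libraries. Ctnna2 was lower in D by 0.90 (log2 difference -0.90), Ctnna1 by 0.63 (-0.63) and Ctnnb1 by 0.21 (-0.21), while Jup differed by 0.12 in D. None of these 5 had an unadjusted p under 0.05. Erythroid markers, another value that set D apart, summed to 161 TPM there against 46.1 and 43.1 TPM in A and B, and their part in these differences was not tested.

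By order of log2 CPM, 19 of the 39 tested members were highest in library A (48.7%), beside 34.3% of all tested genes. Of the 4528 tested genes with at least 5000 bases, 48.8% were highest in A, and all 50 members, tested or not, had a median length of 6320 bases. Library A was the lowest for 12 members (30.8%), beside 32.4% of all tested genes and 20.5% of the long genes. Library D was the highest for 9 members (23.1%), beside 37% of all tested genes and 24.8% of the long genes. It was the lowest for 14 members (35.9%), beside 38.8% of all tested genes and 46.6% of the long genes. Library B was the highest for 11 (28.2%), beside 28.7% of all tested genes and 26.4% of the long genes. It was the lowest for 13 members (33.3%), beside 28.8% of all tested genes and 32.9% of the long genes. The part of gene length in these counts was not tested. After the trend with length was removed from each library, no member passed the adjusted threshold, and Cdh2, Pcdh11x, Cdh10 and Pcdh7 were the 4 members at an unadjusted p under 0.05.

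**Figure D4:**
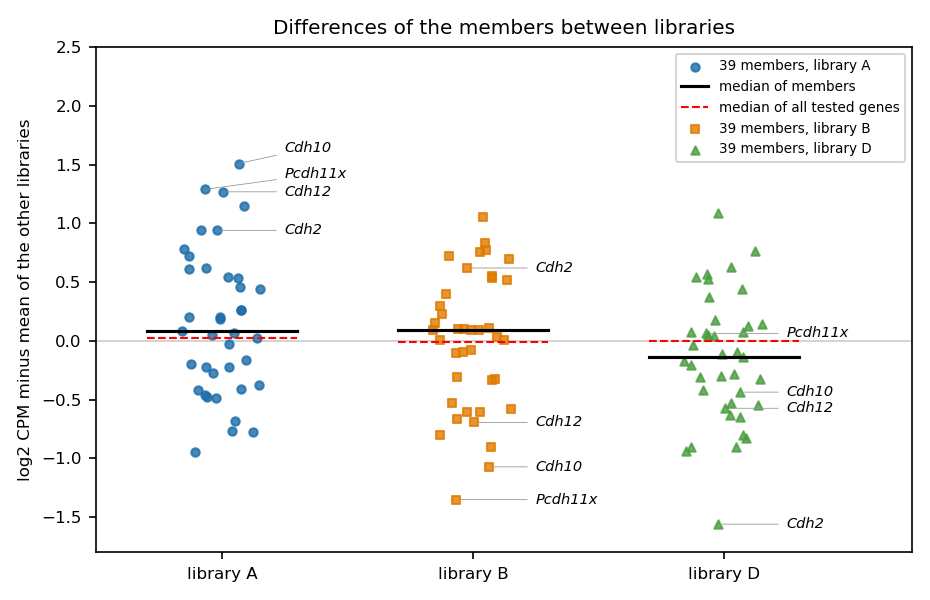
Log2 CPM of each of the 39 tested members in libraries A, B and D minus the mean of the other 2; black lines give the median of the members and dashed red lines that of all tested genes. Cdh2 is the lowest point of D at -1.56, Cdh10 the highest of A at 1.51, and the medians of the members are 0.09, 0.09 and -0.14.

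The spread of the members over libraries was summarised by the coefficient of variation of TPM. Its median was 34.6% over the 33 members at 1 TPM or more and ranged from 9.40% for Jup to 74.3% for Cdh10. Over all protein-coding genes at 1 TPM or more it was 26.5%. Both medians take in the shift of TPM in D and were not matched for gene length, and their difference was not tested. In the edgeR test above, none of the 39 tested members passed the adjusted threshold.

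Members lie in groups on some chromosomes, and their levels differed within these groups. Chromosome 8 held 9 of them (Fat1, Cdh8, Cdh11, Cdh5, Cdh16, Cdh3, Cdh1, Cdh13 and Cdh15), with means between 0.176 and 29.9 TPM. On chromosome 15, Cdh6, Cdh9, Cdh10, Cdh12, Cdh18, Ctnnd2 and Celsr1 ranged from 0.167 TPM for Celsr1 to the level of Ctnnd2 given above. Cdh1 and Cdh3, neighbours on chromosome 8, were at 5.39 and 7.51 TPM. Cdh20, Cdh7 and Cdh19 on chromosome 1 were at 0.145, 1.61 and 1.93 TPM.

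Promoter sequence, which the choice of members did not use, was taken from RefSeq (GRCm38.p6) as the 250 bases before the annotated start, for the 34 members with an entry used here. CpG dinucleotides had a median of 12 per window over these 34 and of 6 over all 32851 windows. Each member had 1 window, whereas all windows together outnumber the 21474 protein-coding genes. The background was thus not limited to 1 window per protein-coding gene, and these medians compare unlike sets. Among members, the median was 16.5 for the 22 at 1 TPM or more and 8 for the 12 below, a description with no test. For 6 of the 34 (Pcdh15, Cdh18, Fat3, Cdh9, Fat2 and Fat1) the RefSeq start lay 14761 to 722525 bases from the deposited gene start. It lay 4184 bases away for Ctnnb1, 1937 for Pcdh9, 1382 for Cdh10, 469 for Cdh7 and 275 for Celsr3, also more than the 250 bases of a window. All those windows may not belong to the transcript that was counted, and the medians of 16.5 and 8 include them. The letters CACCTG, on either strand, were in 5 of the 34 windows (14.7%) and in 17.2% of all windows, and TATAAA in 3 (8.82%) and in 12.4%. These are matches of letters, not sites, and the same difference between members and all windows holds for them. The windows of 3 members that differ in level are shown, with CG in capitals: Ctnna2 (chr6:77979668-77979917, minus strand) with 30 CpG, Ctnna3 (chr10:63429848-63430097, plus strand) with 36 at a level of 0.329 TPM, and Cdh15 (chr8:122848124-122848373, plus strand) with 5 at 14.2 TPM.
Ctnna2: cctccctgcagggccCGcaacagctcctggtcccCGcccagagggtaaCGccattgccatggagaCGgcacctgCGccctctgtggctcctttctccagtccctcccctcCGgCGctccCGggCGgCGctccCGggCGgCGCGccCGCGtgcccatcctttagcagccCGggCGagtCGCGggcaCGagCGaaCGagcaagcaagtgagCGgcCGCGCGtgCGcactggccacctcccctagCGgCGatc
Ctnna3: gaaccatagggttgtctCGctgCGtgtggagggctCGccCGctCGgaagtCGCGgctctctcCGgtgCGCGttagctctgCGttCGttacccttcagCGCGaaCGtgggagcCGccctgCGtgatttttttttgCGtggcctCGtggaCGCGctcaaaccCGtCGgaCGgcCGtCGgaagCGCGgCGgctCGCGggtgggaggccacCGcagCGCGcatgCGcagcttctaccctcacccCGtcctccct
Cdh15: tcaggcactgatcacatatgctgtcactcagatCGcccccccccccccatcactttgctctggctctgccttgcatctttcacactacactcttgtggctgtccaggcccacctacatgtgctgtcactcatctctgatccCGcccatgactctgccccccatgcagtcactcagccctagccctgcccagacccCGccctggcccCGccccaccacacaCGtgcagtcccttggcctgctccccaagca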

How the data were processed

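Counts per gene, CPM and RPKM were deposited by the authors for 3 libraries of cells sorted for Ret-EGFP. Named in the submitters' processing notes are featureCounts 1.4.5, Subread and build GRCm38.p2; how strand and multiple matches were handled is not given in these sources. Per the labels' protocols, 10 ng of RNA was amplified, and no molecular identifiers are described, so floors cover counting error only (3 counts, or 0.103 to 0.149 CPM). The deposited CPM equalled counts over the library total and the deposited RPKM equalled CPM per kilobase, so neither was tested. Total counts were 20181558 (A), 20355302 (B) and 29061086 (D). TPM came from counts and deposited lengths. Symbols and biotypes came from GENCODE M21 by gene ID (40340 of 41388 matched).

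Members and lists were chosen with earlier results of these data known. Values in every library are given for members at 10 TPM or more, members with an unadjusted p under 0.05, Cdh1, Cdh2, Cdh5, Cdh11, Cdh15 and Cdh19, and some others chosen after their values were seen. The test of variation used edgeR 4.0.16 (R 4.3.3): TMM, filterByExpr, an intercept-only fit with trended dispersion, chi-square with 2 degrees of freedom and Benjamini-Hochberg adjustment over all genes tested at 0.05; it was tested on simulated data. Ratios were taken within libraries for 16 pairs, 15 of which had at least 10 counts of both genes in each library, and tested by exact sign-flip permutation, two-sided. DESeq2 1.42.0 served as an alternative. Python 3.11.15, numpy 2.4.6, pandas 2.3.3, scipy 1.17.1 and matplotlib 3.10.9 were used. Alternatives were other thresholds, scalings, filters, dispersions and lengths, and leaving out each library.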

Additional observations from a re-analysis of the deposited data

How the results depend on the processing

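No paired analysis was possible because the libraries form 1 group. The number of members at 1 TPM or more was 33, and between 27 (threshold of 2 TPM) and 36 (1 CPM in place of 1 TPM) under the alternatives, with 33 without any 1 library and 31 where 1 TPM was asked of every library. No member was called variable under DESeq2 size factors, library totals alone, a common dispersion, no low-count filter, removal of the length trend, or without any 1 library, and DESeq2 1.42.0 named none of the 50 as a dispersion outlier. Members at an unadjusted p under 0.05 numbered 4, and 3 to 5 under the other settings with all libraries, 1 without A, 1 without B and 4 without D. Of the 15 pair ratios, 14 kept their sign under every alternative run. That of Cdh2 to Cdh11 (0.09) turned to -0.16 without A and -0.14 without B, and lay between -0.16 and 0.58 as libraries were left out. The 2 length alternatives (M21 and unshared exon bases), and the removal of the length trend, were added after seeing the data. Both length alternatives replaced the lengths of members alone, without rescaling. The M21 length moved 9 of the 50 member levels by 1 SD or more, and the unshared length moved 1, Ctnnd1. Small counts limit the members below 1 TPM, of which 5 had no count in at least 1 library.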

Other observations

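Each alpha-catenin gene holds, within its span and on the opposite strand, a gene of the Lrrtm family, which encodes synaptic adhesion proteins with leucine-rich repeats. These genes were chosen after their values were seen. Lrrtm1 inside Ctnna2 was at 19.3 ± 4.35 TPM, beside 125 ± 52.7 TPM of its host (log2 ratio -2.61 ± 0.37). Lrrtm2 inside Ctnna1 was at 10.4 ± 5.78 TPM, beside 66.0 ± 24.0 TPM (log2 ratio -2.73 ± 0.54). Lrrtm3 inside Ctnna3 was at 8.89 ± 0.404 TPM, beside 0.329 ± 0.0633 TPM of its host. That pair had the opposite order in all 3 libraries, with Lrrtm3 27.3-fold above Ctnna3 (log2 ratio 4.77 ± 0.22, exact sign-flip permutation p = 0.25, the smallest possible). No exon bases are shared between host and inner gene in the deposited files, and reads from introns were not examined.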
